A study of Mus musculus with 12 samples.

Results

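The Ikaros family of zinc finger transcription factors comprises 5 mouse genes: Ikzf1 (Ikaros), Ikzf2 (Helios), Ikzf3 (Aiolos), Ikzf4 (Eos) and Ikzf5 (Pegasus). Its accessible chromatin was taken from the master peak-list of an ATAC-seq study as every peak for which HOMER gave a family member as the gene with the nearest promoter, which selected 52 of 84243 peaks and all 5 members of the 19040 genes named in the list. ATAC-seq uses a transposase that inserts adapters into exposed DNA, so that a peak marks a stretch of open chromatin. The study sorted 6 hematopoietic cell types from wild-type C57BL/6 mice aged 8 to 12 weeks, with 2 replicates each and 12 samples in all. These were hematopoietic stem cells (HSCs), megakaryocyte progenitors (MkPs), erythroid progenitors (EPs), granulocyte/macrophages (GMs) and B cells, all labelled as bone marrow, and T cells, labelled as thymus. The 6 peak-lists were merged into 1 list that keeps positions but not the cell type of origin. It has 0 columns of values per sample, and the score is 0 in every peak. A peak therefore shows that a site was open in at least 1 of the cell types, the depth behind it is unknown, there are no replicate values, and no test was made. All coordinates are those of mm10 (GRCm38), and each peak is 499 bp wide.

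Ikaros proteins bind DNA through zinc fingers near the amino terminus and pair with themselves and with one another through zinc fingers at the carboxyl terminus. Ikaros recognises sequences with the core GGGAA and recruits chromatin remodelling and deacetylase complexes, chiefly NuRD, to silence or activate genes. Ikaros is known for its role in lymphocyte development and already acts in multipotent progenitors. Aiolos is best known from B cells, Helios and Eos from regulatory T cells, and Pegasus is expressed in many tissues.

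The peaks were spread very unevenly over the family. Ikzf2 had 25 and Ikzf1 had 20, together 45 of the 52 (86.5%), whereas Ikzf3 had 5 and Ikzf4 and Ikzf5 had 1 each. Only 4 were promoter peaks, centred at most 500 bp from a transcription start site (TSS), of which 2 belonged to Ikzf1, 1 to Ikzf3 and 1 to Ikzf5. Introns held 29 peaks, 13 in Ikzf1, 13 in Ikzf2 and 3 in Ikzf3. Distal peaks, annotated as intergenic, numbered 18, with 12 at Ikzf2, 4 at Ikzf1, 1 at Ikzf3 and 1 at Ikzf4. The remaining peak, at Ikzf1, lay upstream of the gene in the promoter class of HOMER but outside 500 bp. Promoter peaks made up 7.69% of the family's peaks (3.03 to 18.2% by the 95% Wilson interval, a measure of counting error alone) and 15.6% of the whole list. Intron peaks made up 55.8% (42.3 to 68.4%) against 40.5%, and distal peaks 34.6% (23.2 to 48.2%) against 37.6%. The intervals for promoter and distal peaks included the share of the whole list and that for intron peaks lay above it. Peaks of 1 gene are not independent of each other, and Ikzf1 and Ikzf2 supply most of them.

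**Figure D1:**
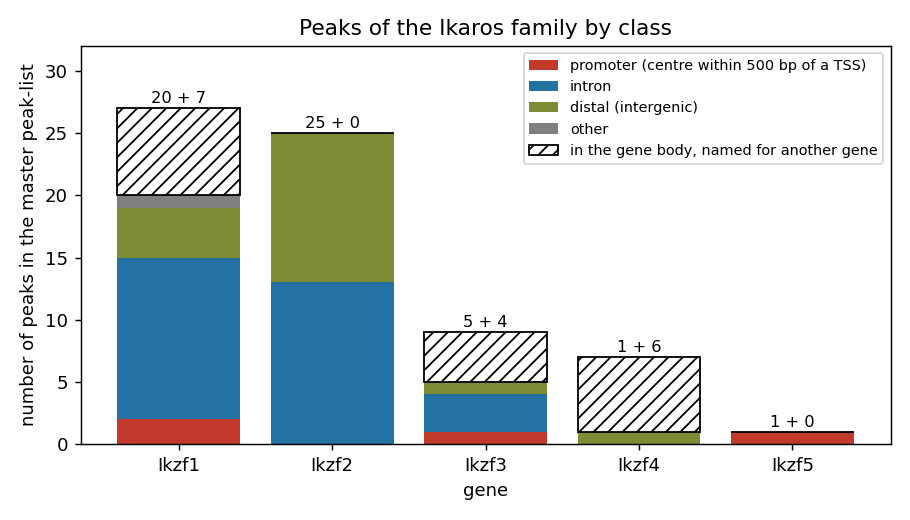
Number of master peaks (y axis) for each Ikaros gene (x axis), with filled bars for peaks that name the gene, coloured by class, and hatched bars for peaks centred inside the gene that name another gene; the numbers above the bars give the filled plus the hatched count. Ikzf1 and Ikzf2 have 20 and 25 named peaks, while Ikzf4 has 1 named peak and 6 others inside its annotated body.

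By the names in the list, 3 of the 5 members had a promoter peak and 3 had an intron peak, where 64.5% of all genes named in the list had a promoter peak and 57.5% an intron peak. The median gene had 3 peaks, and 25.4% of genes had only 1. Ikzf2 stood at percentile 99.1 of peak number, with 159 genes above it, and Ikzf1 at percentile 98.2, with 314 genes above it (percentiles by mid-rank, in which tied genes share a rank). Ikzf3 was at percentile 71.8, and Ikzf4 and Ikzf5 at 12.7. Long genes and wide gaps between genes leave room for more peaks, so the number was also taken per 100 kb of territory. Territory is the gene body plus the part of each flanking gap that is nearer to it than to the next gene. The peaks counted were those that name the gene, which are not always those inside its territory. The named Ikzf2 peaks spanned 299 kb against a territory of 242 kb, and Ikzf4 counted 1 peak although 7 lay in its body. The values are therefore a rough scaling by size. Ikzf1 then had 19.7 peaks per 100 kb (percentile 78.0) and Ikzf2 10.3 (percentile 58.0), so that their order was exchanged and neither stood as far from other genes as by number. Ikzf3 had 5.74, Ikzf5 4.56 and Ikzf4 2.43 peaks per 100 kb, at percentiles 36.6, 29.0 and 13.7.

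**Figure D2:**
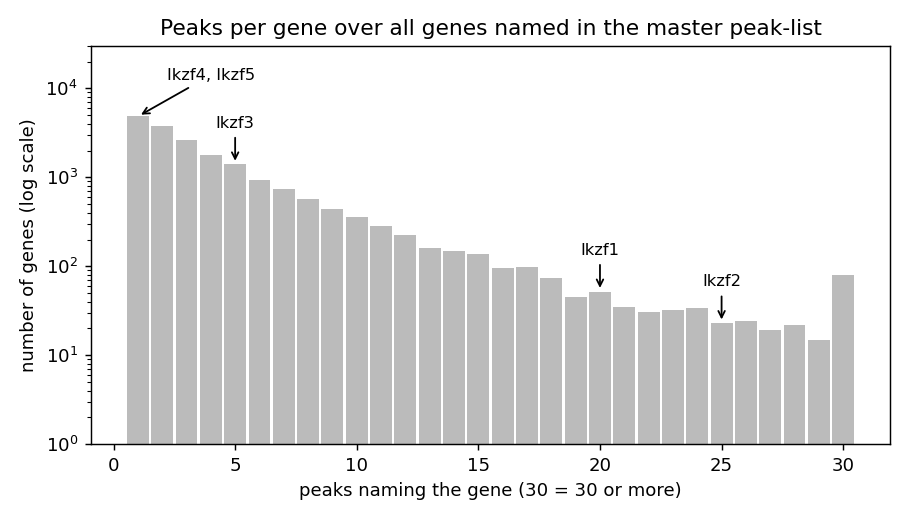
Distribution of peaks per gene over the 19040 genes named in the master peak-list (x axis, number of peaks, with genes of 30 or more in the last bar; y axis, number of genes on a log scale). Arrows mark the bars that hold the family members: Ikzf4 and Ikzf5 at 1 peak, Ikzf3 at 5, Ikzf1 at 20 and Ikzf2 at 25.

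Ikzf1 lies on the plus strand of chromosome 11 (chr11:11684962-11772930 with predicted transcripts, 88.0 kb, 8 exons in the RefSeq Select transcript) and has 2 curated TSSs, at 11685925 and 11690177. Both had a promoter peak. The peak of the upstream TSS, chr11:11685895-11686393, was centred 219 bp downstream of it in the 5′ untranslated region of exon 1, had 72.9% G and C and held 59 CpG dinucleotides. The peak of the downstream TSS, chr11:11690151-11690649, was centred 223 bp downstream of that start, inside intron 1 of the longer transcript, with 54.9% G and C and 8 CpGs. The starts thus differed in base composition, one being CpG-rich and the other CpG-poor. A further peak, chr11:11684708-11685206, was centred 968 bp upstream of the upstream TSS but 5 bp from a predicted RefSeq TSS and 46 bp from a GENCODE transcript start. In the 250 bp before the upstream TSS (82% G and C), neither the Ikaros core GGGAA nor the ETS string AGGAAG occurred on either strand. In the 250 bp before the downstream TSS (47.6% G and C), GGGAA occurred 2 times and AGGAAG 3 times. Among 32851 RefSeq promoter windows of 300 bp (250 before and 50 after a start), 62.7% held GGGAA and 35.4% AGGAAG. The stretch of the downstream promoter that precedes all annotated starts, chr11:11689927-11690120, plus strand, from RefSeq on GRCm38, is shown because it carries 2 of these ETS strings, in capitals and on opposite strands; it ends just before the peak begins.
Ikzf1 downstream promoter: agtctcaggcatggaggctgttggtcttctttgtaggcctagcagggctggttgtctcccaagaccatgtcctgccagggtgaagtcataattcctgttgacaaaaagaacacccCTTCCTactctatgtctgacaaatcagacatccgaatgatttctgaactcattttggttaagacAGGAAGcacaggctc

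The remaining Ikzf1 peaks lay along the first part of the gene and upstream of it. The 4 distal peaks were centred 6743, 18196, 26859 and 28560 bp upstream of the TSS. No distal peak that named Ikzf1 lay downstream of the gene, where 3 intergenic peaks named the neighbouring gene Fignl1. Of the 13 intron peaks, 3 were in intron 1, 5995 to 11615 bp from the upstream TSS, and 10 were in intron 3, 26081 to 56767 bp from it. The 10 peaks of intron 3 fell within 31.2 kb, 8 of them within 17.1 kb (chr11:11725870-11742941) and 4 within 5.11 kb (chr11:11729113-11734224). Neighbouring Ikzf1 peaks were a median of 3243 bp apart, and the closest pair was 586 bp apart. The farthest peak was centred 52515 bp from the nearer start.

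The list gives a peak to the nearest promoter, not to the gene it lies in, and this removed the 3′ part of Ikzf1 from the count. A further 7 peaks between 11750337 and 11768513 were centred in introns 4, 6 and 7 of Ikzf1 but named Fignl1, a gene of the fidgetin AAA ATPase family whose TSS lies downstream, 40698 to 58376 bp from them. Their distance from the upstream Ikzf1 TSS was 64661 to 82339 bp. Intron 7 held 4 of them in 7.53 kb, or 5.31 peaks per 10 kb, the highest density of any intron of the family, against 2.47 in intron 3. With these peaks Ikzf1 had 27 and introns 2 and 5 had none. One of the 7, chr11:11766094-11766592 in intron 7, held 3 copies of the RUNX string TGTGGTT, a number reached by 103 of 84243 peaks (0.122%). Its central 300 bases, chr11:11766193-11766492, plus strand, are shown with the RUNX strings in capitals, all of them on the minus strand. This peak was singled out after the strings had been counted.
Ikzf1 intron 7 peak: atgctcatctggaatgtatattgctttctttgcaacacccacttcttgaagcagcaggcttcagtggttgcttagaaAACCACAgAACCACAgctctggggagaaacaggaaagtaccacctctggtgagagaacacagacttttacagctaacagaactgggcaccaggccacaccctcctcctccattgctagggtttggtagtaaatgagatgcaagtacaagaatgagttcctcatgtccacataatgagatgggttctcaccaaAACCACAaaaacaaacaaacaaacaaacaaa

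**Figure D3:**
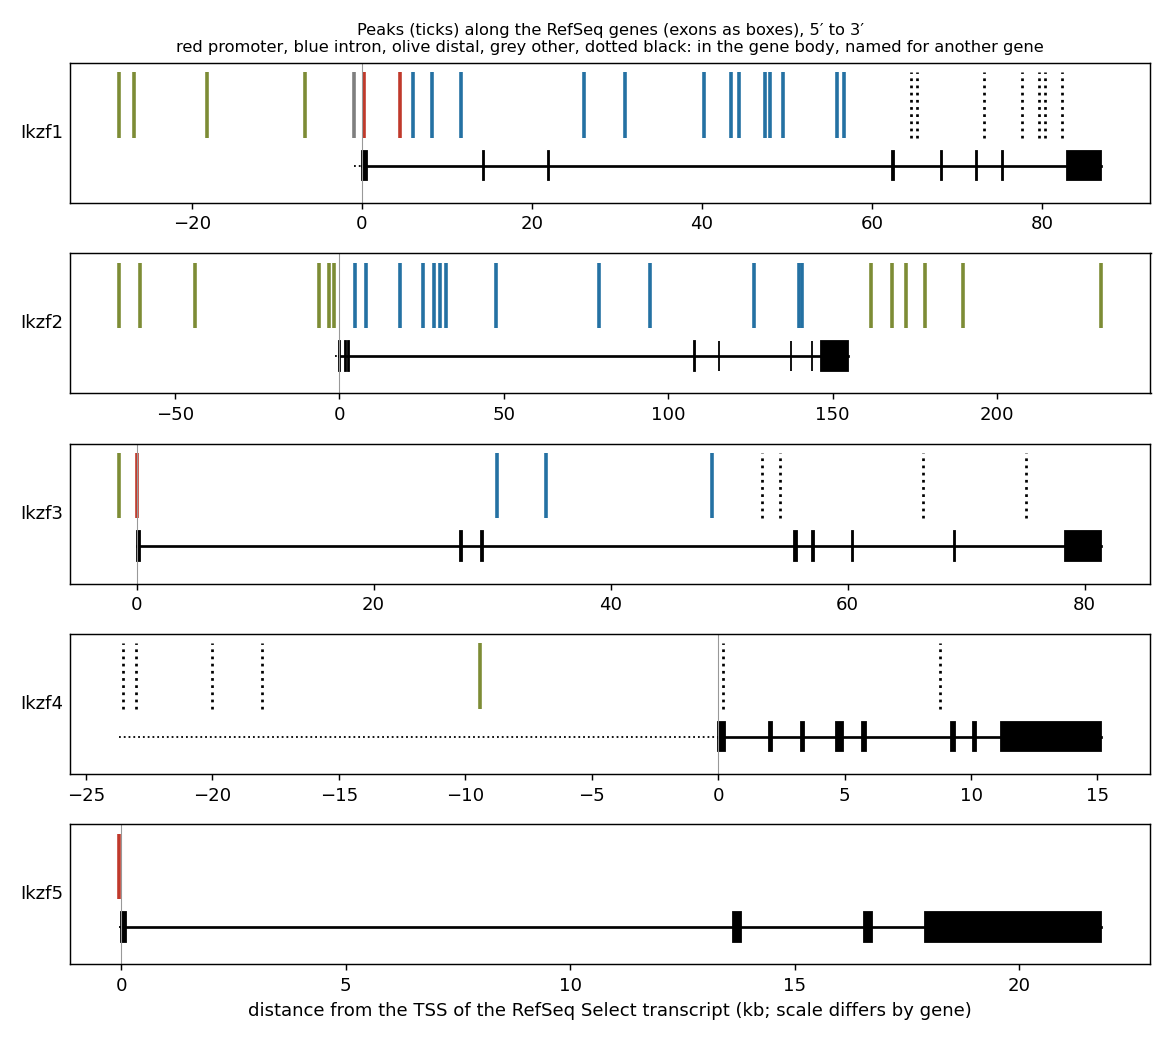
Position of each peak (ticks) along the 5 genes, as distance in kb from the start of the RefSeq Select transcript (x axis, with a different scale for each gene). Black boxes are exons of the Select transcript, the last drawn to the 3′ end of the annotated gene. The solid line runs from the Select start to that end, and the dotted line is the upstream extension by predicted transcripts. Ticks are red for promoter, blue for intron, olive for distal and grey for other peaks, and dotted black ticks are peaks in the gene that name another gene: in Ikzf1 and Ikzf3 these take up the 3′ part of the gene, and in Ikzf2 there are none.

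Ikzf2 is the longest member, on the minus strand of chromosome 1 (chr1:69531207-69687351, 156 kb, 8 exons), and it had the most peaks but no promoter peak. The peak nearest to its curated TSS at 69685960, chr1:69687284-69687782, was centred 1573 bp upstream and is annotated as intergenic. It had 80.0% G and C and 89 CpGs, and 29 of the 84243 peaks (0.0344%) had at least as many CpGs, with a maximum of 99. All promoter peaks of the list had a median of 63.3% G and C and 38 CpGs, and all non-promoter peaks 47.7% and 6 CpGs. The CpG-rich peak was centred 182 bp upstream of a predicted RefSeq TSS and 288 bp upstream of a GENCODE transcript start, so that its class depends on which transcripts are counted. Its central 299 bases, chr1:69687384-69687682, are given on the minus strand, the strand of the gene, with CpGs in capitals, since this is the only CpG-rich peak of the gene.
Ikzf2 upstream peak: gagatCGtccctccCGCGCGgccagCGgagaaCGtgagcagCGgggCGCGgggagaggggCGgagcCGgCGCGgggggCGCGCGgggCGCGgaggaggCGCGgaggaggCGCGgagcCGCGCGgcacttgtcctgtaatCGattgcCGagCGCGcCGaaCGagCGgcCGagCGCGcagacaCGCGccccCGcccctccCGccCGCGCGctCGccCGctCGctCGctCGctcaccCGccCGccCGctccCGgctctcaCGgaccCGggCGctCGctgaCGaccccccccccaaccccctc

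The other 24 Ikzf2 peaks were 13 in introns and 11 intergenic. In all, 6 distal peaks lay upstream, 1573 to 66987 bp from the TSS, and 6 downstream of the gene, 161551 to 231750 bp from the TSS. The farthest, chr1:69453961-69454459, was annotated to an MT2B2 repeat of the ERVL class. The intron peak nearest to the TSS was 4756 bp from it, in intron 3. Intron 3, of 105 kb, held 10 of the 13 intron peaks, intron 5 held 1, and intron 6 held 2 that were 699 bp apart. A group of 4 peaks in intron 3 fell within 7.38 kb (chr1:69653368-69660744). Neighbouring Ikzf2 peaks were a median of 6788.5 bp apart, and all 13 peaks inside the gene named Ikzf2. The peak chr1:69654992-69655490 in this group had 11 overlapping copies of the ETS string AGGAAG, a number reached by 94 peaks of the list (0.112%). In its central 300 bases, chr1:69655091-69655390, plus strand, the capitals mark these copies, which form an unbroken run of a simple repeat and cannot be counted as separate sites. It is shown for that reason, and was singled out after the strings had been counted.
Ikzf2 intron 3 peak: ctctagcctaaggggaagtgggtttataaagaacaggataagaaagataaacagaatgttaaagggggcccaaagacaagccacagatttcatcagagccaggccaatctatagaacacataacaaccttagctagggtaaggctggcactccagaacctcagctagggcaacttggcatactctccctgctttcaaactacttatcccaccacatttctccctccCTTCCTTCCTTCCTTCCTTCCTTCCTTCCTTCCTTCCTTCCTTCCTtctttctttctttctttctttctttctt

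Ikzf3 lies on the minus strand of chromosome 11 (chr11:98464610-98546031, 81.4 kb, 8 exons), on the same chromosome as Ikzf1, and had 5 peaks. Its promoter peak, chr11:98545776-98546274, was centred 6 bp downstream of the TSS in exon 1, with 63.5% G and C and 51 CpGs. A distal peak, chr11:98547251-98547749, lay 1469 bp upstream and had 38.7% G and C. The 3 intron peaks were all in intron 3, at 30379, 34550 and 48517 bp from the TSS, and that at 30379 bp was annotated to a MER4B-int repeat. Intron 1, of 27.0 kb, held no peak. A further 4 peaks, between 98470687 and 98493510, were centred in introns 3, 6 and 7 of Ikzf3 but named Grb7, an adaptor protein of receptor tyrosine kinases, whose TSS lies 24102 to 46427 bp from them. The part of the promoter peak that lies upstream of the TSS, chr11:98546032-98546274, is shown on the minus strand with CpGs and the GATA string AGATAA in capitals. It is the only promoter peak of the family with that string, which 8.66% of all promoter peaks held.
Ikzf3 promoter: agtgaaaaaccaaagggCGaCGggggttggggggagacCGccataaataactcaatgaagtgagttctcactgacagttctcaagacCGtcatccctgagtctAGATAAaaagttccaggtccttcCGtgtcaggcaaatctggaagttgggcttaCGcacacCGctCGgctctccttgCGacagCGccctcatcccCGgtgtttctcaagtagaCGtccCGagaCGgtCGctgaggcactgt

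For Ikzf4 the list and the gene annotation gave different pictures. Ikzf4 is on the minus strand of chromosome 10, with a curated TSS at 128645993, and its annotated body reaches from 128630839 to 128669671 (38.8 kb) when predicted transcripts are included. The only peak that named it, chr10:128655171-128655669, was annotated as intergenic, 9427 bp upstream of the curated TSS, and had 43.5% G and C. A peak did lie on the curated promoter. It was chr10:128645557-128646055, centred 187 bp downstream of the Ikzf4 TSS and 3 bp from a predicted one, with 62.7% G and C and 26 CpGs, but it named the overlapping non-coding gene Gm26876, whose TSS was 78 bp away. Another peak that named Gm26876 lay in intron 5 of Ikzf4. A further 4 peaks within the part of the gene covered only by predicted transcripts named Suox, which encodes sulfite oxidase. The central 300 bases of the peak that names Ikzf4, chr10:128655270-128655569, plus strand, are shown because it is the single member of the list for this gene. Capitals mark a GATA string (AGATAA), an ETS string (AGGAAG) and the E-boxes CAGCTG and CAGGTG, on either strand.
Ikzf4 upstream peak: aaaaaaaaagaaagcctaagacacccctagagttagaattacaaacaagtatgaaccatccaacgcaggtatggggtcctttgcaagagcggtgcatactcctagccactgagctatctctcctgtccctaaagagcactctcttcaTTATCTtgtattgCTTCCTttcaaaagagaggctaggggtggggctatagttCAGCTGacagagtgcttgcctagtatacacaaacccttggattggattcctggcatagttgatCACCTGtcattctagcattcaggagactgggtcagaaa

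Ikzf5 is the shortest member (chr7:131388649-131410518, minus strand, 21.9 kb, 4 exons) and had a single peak, chr7:131410268-131410766, centred 39 bp upstream of its TSS. The peak had 64.9% G and C and 46 CpGs. It also covers the start of Acadsb, a short and branched chain acyl-CoA dehydrogenase gene on the opposite strand, and HOMER annotated it to the Acadsb promoter while naming Ikzf5, so that the peak cannot be given to either gene alone. None of the 3 introns of Ikzf5 held a peak. The 82 bases between the outermost annotated starts of the gene pair, chr7:131410519-131410600, are shown on the minus strand with CpGs and the CEBP string TTGCNNAA in capitals, since both genes share them.
Ikzf5 and Acadsb interval: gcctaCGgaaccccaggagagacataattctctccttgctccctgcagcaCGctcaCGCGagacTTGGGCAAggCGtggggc

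Counting every peak that was centred within 500 bp of a curated TSS, whatever gene it named, 4 of the 5 members had a promoter peak and Ikzf2 did not. When predicted RefSeq starts were added, all 5 had one. No share of all genes is given for either rule, so these counts have no background. Inside the annotated gene bodies there were 51 peaks, 22 in Ikzf1, 13 in Ikzf2, 8 in Ikzf3, 7 in Ikzf4 and 1 in Ikzf5, of which 17 named another gene.

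Among the introns of Ikzf1, Ikzf2 and Ikzf3, intron 3 held the most peaks in each gene. The Select transcripts of the 5 genes had 42 peaks centred in introns, and 25 of these (59.5%) were in intron 3 of Ikzf1, Ikzf2 or Ikzf3. In Ikzf1 it held 10 of 21 intron peaks (47.6%) and made up 49.5% of the intron length. In Ikzf2 it held 10 of 13 (76.9%) and made up 72.4% of the length. For these genes the number of peaks in intron 3 was close to its share of the length. In Ikzf3 it held 5 of 7 (71.4%) and made up 34.0% of the length, while intron 1, with 35% of the length, held 0.

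Most promoter peaks were richer in G and C than the other peaks, except for that of the downstream Ikzf1 start, and the CpG-rich distal peak of Ikzf2 exceeded them all. The 4 promoter peaks had a median of 64.2% G and C and 48.5 CpGs, and the 48 non-promoter peaks a median of 44.3% and 5 CpGs. The latter median was below that of all non-promoter peaks, 47.7%. Annotated repeats held 6 of the 52 peaks (11.5%), 3 at Ikzf1, 2 at Ikzf2 and 1 at Ikzf3, where 15.1% of the whole list lay on a repeat.

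**Figure D4:**
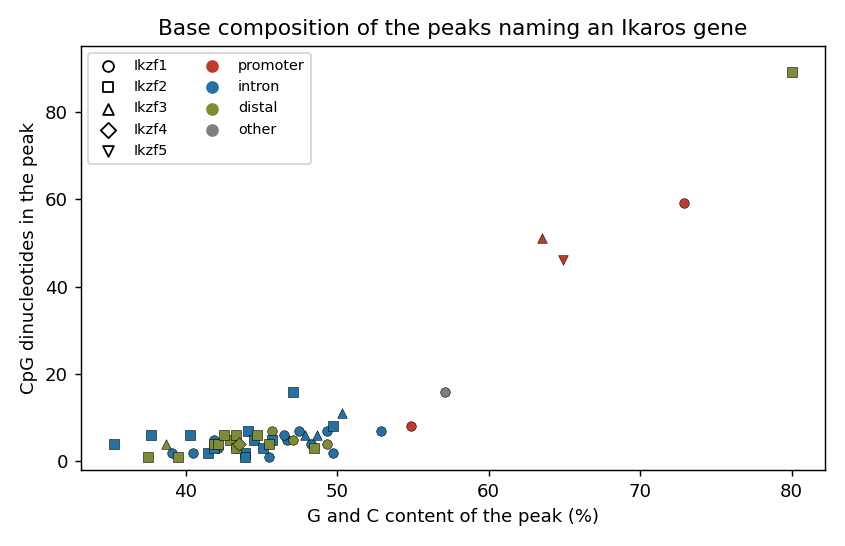
Each point is 1 of the 52 peaks that name an Ikaros gene, by its G and C content in percent (x axis) and its number of CpG dinucleotides in 499 bp (y axis), with the shape giving the gene and the colour the class. The distal Ikzf2 peak at 80.0% and 89 CpGs lies beyond the promoter peaks, and the promoter peak of the downstream Ikzf1 start, at 54.9% and 8 CpGs, lies close to the non-promoter peaks.

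The peaks were searched on both strands for TGGGAA, a string recognised by Ikaros. Whether every member of the family binds it was not tested. This string contains the Ikaros core GGGAA and is also the core of RBPJ sites, the DNA-binding partner of Notch, and the search cannot tell these factors apart. It occurred in 25 of the 52 peaks (48.1%, interval 35.1 to 61.3%) and in 37.1% of all master peaks, which lies within that interval. Ikzf1 had it in 14 of 20 peaks (70%, interval 48.1 to 85.5%), Ikzf2 in 10 of 25 (40%, 23.4 to 59.3%), Ikzf3 in 1 of 5, and Ikzf4 and Ikzf5 in 0 of 1. At least 2 copies were present in 10 peaks (19.2%, interval 10.8 to 31.9%, against 8.37% of the list) and 3 copies in 2 peaks (3.85%, interval 1.06 to 13%, against 1.27%). The share of the list lay below the interval for Ikzf1 and for at least 2 copies, and within it for Ikzf2 and for 3 copies. The median offset of the 37 copies from the centre of their peak was 136 bp, and 11 were within 100 bp. In the central 200 bp the string occurred in 8 peaks (15.4%), against 15.1% of the list. The core GGGAA was found in 42 of the 52 (80.8%) and in 79.0% of the list. At Ikzf1 the core was in 19 of 20 peaks (95%, interval 76.4 to 99.1%), an interval that includes the share of the list. All these counts leave out the 7 peaks inside Ikzf1 that named Fignl1. Of those, the peaks starting at 11750990, 11763341 and 11765328 held TGGGAA 1 time each, and the others did not hold it.

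The peaks with the most copies in Ikzf1, Ikzf2 and Ikzf3 are shown with TGGGAA, or TTCCCA where it is on the minus strand, in capitals; all 3 sequences are on the plus strand. The Ikzf1 peak is the distal peak 26859 bp upstream (sequence chr11:11658991-11659290, 3 copies). The Ikzf2 peak is distal and downstream of the gene, on an L2 repeat 161551 bp from the TSS (chr1:69524300-69524599, 3 copies). The Ikzf3 peak lies in intron 3, 48517 bp from the TSS (chr11:98497364-98497663, 1 copy).
Ikzf1 distal peak: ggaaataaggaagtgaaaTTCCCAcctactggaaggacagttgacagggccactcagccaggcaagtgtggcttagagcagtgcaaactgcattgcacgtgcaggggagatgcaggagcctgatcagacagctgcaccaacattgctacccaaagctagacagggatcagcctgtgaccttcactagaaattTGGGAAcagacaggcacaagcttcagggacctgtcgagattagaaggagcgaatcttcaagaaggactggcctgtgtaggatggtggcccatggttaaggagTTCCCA
Ikzf2 distal peak: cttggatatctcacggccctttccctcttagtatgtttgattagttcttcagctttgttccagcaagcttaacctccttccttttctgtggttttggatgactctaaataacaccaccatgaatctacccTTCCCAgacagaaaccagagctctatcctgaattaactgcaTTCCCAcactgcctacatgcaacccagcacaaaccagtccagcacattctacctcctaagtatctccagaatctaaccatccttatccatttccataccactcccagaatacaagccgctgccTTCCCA
Ikzf3 intron 3 peak: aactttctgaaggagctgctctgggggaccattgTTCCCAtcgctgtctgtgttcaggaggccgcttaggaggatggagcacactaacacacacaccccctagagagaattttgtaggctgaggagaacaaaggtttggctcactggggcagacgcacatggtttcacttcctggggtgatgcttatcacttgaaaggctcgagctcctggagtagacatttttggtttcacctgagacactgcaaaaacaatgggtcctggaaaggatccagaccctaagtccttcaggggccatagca

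Strings of other hematopoietic factors were counted in the same way, 13 strings in all. The GATA string AGATAA occurred in 22 of the 52 peaks (42.3%, interval 29.9 to 55.8%) and in 24.1% of the list. The TCF string CTTTGA, of the factors Tcf7 and Lef1 of T cells, also occurred in 22 (42.3%), against 29.2%. For both, the share of the list lay below the interval of the family, although by less for TCF. By gene, each of these 2 strings occurred in 12 of 25 Ikzf2 peaks (48%, interval 30 to 66.5%). At Ikzf1 each occurred in 7 of 20 peaks (35%, interval 18.1 to 56.7%), and at Ikzf3 in 2 of 5. For both strings, the share of the list lay below the interval of Ikzf2 and within that of Ikzf1. ETS (AGGAAG) was found in 38 (73.1%, against 62.4%), and the PU.1 string GAGGAAGT, which contains it, in 8 (15.4%, against 9.39%). IRF (GAAANNGAA) was found in 11 (21.2%, against 16.3%), CEBP (TTGCNNAA) in 10 (19.2%, against 19.3%) and AP-1 (TGANTCA) in 8 (15.4%, against 15.3%). Lower shares than in the list were found for RUNX (TGTGGTT, 13.5% against 16.1%), for the E-boxes CAGCTG (25% against 29.8%) and CAGGTG (25% against 32.6%), and for the EBF string CCCNNGGGA (3.85% against 9.84%). For each string of this paragraph other than GATA and TCF, the interval of the family included the share of the list. Promoter peaks made up 7.69% of the family's peaks and 15.6% of the list, which the interval of the family included. The median G and C content of non-promoter peaks was 44.3% in the family and 47.7% in the list. Among non-promoter peaks alone, GATA was present in 21 of 48 (43.8%, interval 30.7 to 57.7%) against 26.9%, and TCF in 43.8% against 31.6%, which the interval of TCF included. The part of base composition in these differences was not tested, and a string is not a bound site.

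**Figure D5:**
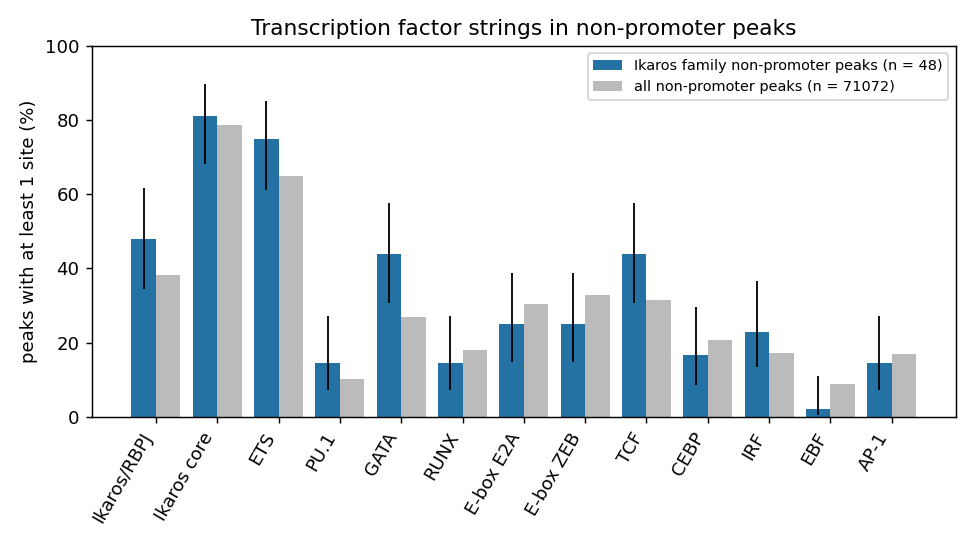
Share of non-promoter peaks with at least 1 exact copy of each string (y axis, percent; x axis, factor family), for the 48 Ikaros family peaks (blue, bars with 95% Wilson intervals for counting error) and all 71072 non-promoter peaks of the list (grey). The GATA bar of the family, at 43.8%, has an interval that begins above the 26.9% of the list, and the other 12 intervals include the value of the list.

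The genes most like Ikzf1 and Ikzf2 in their peaks were found by the smallest summed difference in the number of promoter, intron, distal and other peaks. For Ikzf1 these were Ncoa2, Cdyl and Gas7, each with a summed difference of 2 peaks. For Ikzf2 they were Pag1 (1 peak), Ets1 (2) and Lclat1 (3). Ets1, an ETS family transcription factor of lymphocytes, had 1 promoter, 13 intron and 13 distal peaks, against 0, 13 and 12 at Ikzf2. Likeness here is only in the 4 counts, over the pooled list.

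Genes listed as partners or targets of Ikaros proteins are given only as counts of named peaks. Their lists were written with earlier results of these data known. All 12 genes of the NuRD complex, which remodels and deacetylates nucleosomes, had a peak. No background is given for having a peak, here or in the lists below, as annotated genes without one were not counted. A promoter peak was present at 11, the exception being Gatad2b, where 64.5% of all genes named in the list had one. The 12 genes had 72 peaks in all with a median of 3, the median of all named genes. The fewest were 1 at Rbbp4, a histone chaperone subunit, and the most 26 at Mbd2, a methyl-CpG binding subunit. Another list held 6 genes, the corepressors Sin3a, Sin3b, Ctbp1 and Ctbp2, the remodelling ATPase Smarca4 and the ubiquitin ligase receptor Crbn. Whether they are partners of Ikaros proteins in these cells was not tested. All 6 had a promoter peak, again beside 64.5% of all named genes. They had 33 peaks with a median of 6.5, the most at Ctbp2 (9) and the fewest at Sin3a and Sin3b (2 each). Of 14 genes known as Ikaros targets in lymphocytes, 11 had a peak and 9 a promoter peak. The share of 64.5% counts only genes that the list names, as it does these 11. The 14 genes had 86 peaks in all and a median of 4.5, with genes of 0 named peaks included. The median of 3 over all named genes leaves such genes out, so these medians are not directly comparable. Foxo1, a transcription factor of B cell development, had the most with 20, and Il7r, the receptor chain for interleukin-7, had 16. Vpreb1, a surrogate light chain gene, Ptcra, the pre-T cell receptor alpha chain, and Cd8a, the T cell coreceptor, had 0 named peaks. As with Ikzf4, 0 named peaks does not show that no peak lies in the gene.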

How the data were processed

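ATAC-seq data of 12 samples, 2 replicates of each of 6 cell types, were represented by the master peak-list. The authors aligned reads to mm10, ran the ENCODE pipeline for ATAC-seq to call peaks, concatenated the optimal list of each cell type, kept non-overlapping peaks with chromVAR and annotated them with HOMER (4.10.2 in the submitters' processing notes). The deposited peak score is 0 in all 84243 peaks and was not used. Start, end and distance to the TSS were used in bp as deposited by the authors, without normalization. The list pools all samples and has 0 columns of values per sample, so depth is unknown and no test was possible. Another 7 peaks named no gene and were kept in the list totals.

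Peaks with a member as Gene Name were selected, and classed as promoter (centre within 500 bp of a TSS), intron, distal (intergenic) or other. HOMER distances of all 52 peaks were within 2 bp of those to curated RefSeq TSSs. Introns, gene bodies and sequences came from RefSeq on GRCm38.p6, transcript names from GENCODE M21. The RefSeq promoter table matched 2 of the 5 members. Strings were searched without mismatch on both strands. The search was tested on simulated data and found all 200 planted sites for each of 13 strings. The named genes were the members, the neighbours that hold or share their peaks, the 3 genes most like each member with 10 or more peaks, and the extremes of the partner and target lists. Peaks given in full were the promoter peaks, the nearest and farthest other peaks and those with most Ikaros strings. The peaks with most RUNX and ETS strings were added after the strings had been counted. The members, lists and strings were chosen with earlier results of these data known. The software was pandas 2.3.3, scipy 1.17.1, numpy 2.4.6 and matplotlib 3.10.9 on Python 3.11.15.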

Additional observations from a re-analysis of the deposited data

How the results depend on the processing

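The family had 52 peaks by gene name, 51 by gene body, 54 by the nearest RefSeq Select TSS and 92 by basal domains (2 kb before and 1 kb after a TSS) extended to neighbours within 1 Mb. The 4 promoter peaks became 2 within 100 bp, 5 within 1000 bp and 3 in the promoter class of HOMER. Chosen after seeing the data, any named gene counted gave 5 with curated starts and 9 with predicted starts included. Intron peaks numbered 29 to 42. Distal peaks were 18, 12 within 100 kb, and 36 when peaks of any class over 10 kb from a TSS were counted. Per 100 kb of territory, the percentiles of Ikzf1 to Ikzf5 became 78.0, 58.0, 36.6, 13.7 and 29.0, and protein-coding genes alone gave 98.2, 99.1, 71.8, 12.5 and 12.5. The Ikaros string was found in 25 peaks, in 8 in the central 200 bp and, as the core GGGAA, in 42. These shifts follow from the wider or narrower definitions. A stricter score threshold could not be run, as all scores are 0. No paired analysis was possible because the list pools all samples, and no replicate could be left out for the same reason. Depth per peak is unknown, so how firmly any 1 peak was called cannot be given.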

Other observations

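The rule of basal and extended domains, which links a peak to the genes on either side, added 23 peaks to the family that neither named a member nor lay in one. For Ikzf2 these were 8 peaks that named Spag16, 73800 to 125551 bp from the Ikzf2 TSS, and 7 that named Erbb4, 315687 to 546679 bp away, all of them intergenic. For Ikzf1 there were 3 intergenic peaks that named Fignl1, 91039 to 102939 bp away. For Ikzf3 there were 3 that named Grb7, 86630 to 97292 bp away. Ikzf4 gained 1 that named Rps26 at 16045 bp, and Ikzf5 gained 1 that named Pstk at 37846 bp. None of these was a promoter peak. Which gene, if any, such a peak acts on was not tested.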
